A study of Homo sapiens with 12 samples.

Results

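The heat shock proteins of the HSPA, HSPB, HSPD, HSPE, HSPH and HSP90 families and their DNAJ co-chaperones were examined in the human Ewing sarcoma line TC-71. The genes were selected on their names and on measured values: an entry of the deposited table entered if any of its symbols followed the HSP or DNAJ pattern and its mean normalised read count over the 12 libraries was at least 10. Of 78885 entries, 25787 carried a gene symbol and 65 matched the pattern, and 58 of these passed the minimum. The 7 entries under it were HSPB7 and DNAJB8, with 0 reads, and HSPB8, HSPA12B, DNAJB7, HSPB9 and HSPA7, all listed low. HSPA7, just outside the minimum, had a mean of 5.79, and DNAJB13, just inside it, one of 11.3. The stress-inducible HSPA1A, HSPA1B and HSPA6 are not analysed here.

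Cells were given either YK-4-279, a compound made to keep the fusion protein EWS-FLI1 from binding the RNA helicase DHX9, at 2 mM as labelled, or its solvent DMSO, and were collected at 16 hours. Other cells were transfected with a scrambled control or against DHX9 (siDHX9) and were collected at 48 hours. These reagents are siRNAs by the sample labels and shRNAs by the design text; the sources used here do not give their sequences. Each of the 4 groups had 3 libraries, labelled as biological replicates of the same line, so the p-values measure the spread between cultures of 1 line. The design compares the drug with DMSO and siDHX9 with scrambled; scrambled and DMSO cells differ in transfection, time and handling, which cannot be told apart.

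Chaperones hold unfolded proteins and release them in cycles driven by ATP: J-domain (DNAJ) proteins bring clients to the HSPA proteins and start their ATP hydrolysis, HSPH1 exchanges their nucleotide, and HSP90 takes over late folding steps. Small heat shock proteins (HSPB) bind unfolding clients without ATP. In the cytosol and nucleus many of these genes are induced by the transcription factor HSF1, while chaperones of the endoplasmic reticulum (ER) such as HSPA5 (BiP) and HSP90B1 (GRP94) are induced by the unfolded protein response through ATF6 and XBP1.

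By the known location of their products, 31 of the 58 were cytosolic or nuclear, 14 belonged to the ER, 7 to mitochondria and 6 to other places. Of the 14 ER genes, 9 were in the lumen or had a J domain facing it. The ER entry of DNAJC25 also holds GNG10 and a read-through of both, and that of DNAJC14 also holds SARNP, so their values are of joined entries. Reads per library ranged from 38568983 to 65547726. The entry that holds DHX9, joined in the table with its neighbour NPL, had 30287, 33422 and 34357 normalised counts in the scrambled libraries and 19342, 21178 and 21304 in the siDHX9 libraries, 1.59-fold lower (limma adjusted p = 4.54e-05; exact permutation p = 0.1, the smallest that 3 against 3 can give). All 7 Ewing sarcoma markers were at 859 counts or more in every library. The 10 leukocyte, epithelial and endothelial markers were at 18 or less, with CD3E and KRT5 at 0. Of 3 fibroblast markers, DCN held 183 to 599, LUM 31.2 to 113 and PDGFRA 0 to 6.49.

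The following stretches of 250 bases before the gene start (RefSeq, GRCh38.p14, read 5′ to 3′ on the strand of the gene) are shown for the 4 cytosolic chaperones that rose with YK-4-279 and for 3 ER chaperones, of which DNAJB11 rose with siDHX9. Capitals mark a heat shock element pair, GAANNTTC or TTCNNGAA, or an ER stress response element, which is CCAAT and CCACG with 9 free bases between them, on either strand. DNAJB2 and DNAJB11 hold neither and are printed without capitals.
HSPB1 (chr7:76302423-76302672, plus strand): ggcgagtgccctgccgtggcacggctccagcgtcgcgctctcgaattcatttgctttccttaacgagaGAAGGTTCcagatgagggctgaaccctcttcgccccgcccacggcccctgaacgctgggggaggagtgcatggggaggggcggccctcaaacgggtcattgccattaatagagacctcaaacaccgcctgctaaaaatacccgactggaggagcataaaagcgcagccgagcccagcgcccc
DNAJB2 (chr2:219279116-219279365, plus strand): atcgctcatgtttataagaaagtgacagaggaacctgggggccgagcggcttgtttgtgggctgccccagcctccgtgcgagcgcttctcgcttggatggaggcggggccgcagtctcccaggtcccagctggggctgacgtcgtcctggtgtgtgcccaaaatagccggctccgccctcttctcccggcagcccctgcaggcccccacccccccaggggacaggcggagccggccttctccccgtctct
DNAJB6 (chr7:157336754-157337003, plus strand): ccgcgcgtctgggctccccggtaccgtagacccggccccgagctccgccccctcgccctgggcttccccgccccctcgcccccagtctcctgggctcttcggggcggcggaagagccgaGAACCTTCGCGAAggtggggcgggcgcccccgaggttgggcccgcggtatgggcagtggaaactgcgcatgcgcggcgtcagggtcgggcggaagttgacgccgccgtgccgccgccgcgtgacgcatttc
HSPB6 (chr19:35757030-35757279, minus strand): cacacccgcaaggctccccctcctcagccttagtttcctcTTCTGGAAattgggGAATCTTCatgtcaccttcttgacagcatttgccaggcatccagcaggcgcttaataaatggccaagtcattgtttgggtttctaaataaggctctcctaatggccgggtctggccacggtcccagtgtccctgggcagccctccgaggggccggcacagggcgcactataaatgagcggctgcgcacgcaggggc
HSPA5 (chr9:125241344-125241593, minus strand): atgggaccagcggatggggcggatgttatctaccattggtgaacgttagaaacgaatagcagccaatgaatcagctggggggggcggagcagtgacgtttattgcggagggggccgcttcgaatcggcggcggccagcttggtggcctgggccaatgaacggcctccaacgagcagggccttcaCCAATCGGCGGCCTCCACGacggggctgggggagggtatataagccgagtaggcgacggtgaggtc
HSP90B1 (chr12:103930160-103930409, plus strand): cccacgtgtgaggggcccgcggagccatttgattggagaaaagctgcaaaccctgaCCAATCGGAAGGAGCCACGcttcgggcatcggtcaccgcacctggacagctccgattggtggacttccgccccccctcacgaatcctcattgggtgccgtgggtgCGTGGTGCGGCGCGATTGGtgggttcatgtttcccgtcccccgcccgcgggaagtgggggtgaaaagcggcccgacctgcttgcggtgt
DNAJB11 (chr3:186570470-186570719, plus strand): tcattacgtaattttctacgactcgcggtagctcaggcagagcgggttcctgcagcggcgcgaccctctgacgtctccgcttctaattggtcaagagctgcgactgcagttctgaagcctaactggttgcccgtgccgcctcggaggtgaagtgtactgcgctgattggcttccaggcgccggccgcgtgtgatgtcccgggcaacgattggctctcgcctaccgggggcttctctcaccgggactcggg

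A RefSeq promoter window was matched for 53 of the 58 genes. The heat shock element pair was in 6 of 28 cytosolic windows (HSPA8, DNAJA1, HSPB1, DNAJB6, HSPB6 and HSPA1L), in 1 of 7 mitochondrial windows (DNAJC15) and in 0 of 13 ER windows, against 11.7% of 27305 windows of the same length. The longer triplet, in which GAA and TTC units alternate 3 times with 2 free bases between them and of which the pair is a part, was in HSPA8 and DNAJB6 and in 0.439% of all windows. In DNAJB6 it lies 131 to 119 bases before the start, where its 2 overlapping pairs run together in the capitals above. The ER stress response element was in HSPA5 and, at 2 sites, in HSP90B1, and in 0.0806% of all windows. The core TGACGTGG of another unfolded protein response element was in DNAJC10 and in 0.667% of all windows. The second ER stress response element, ATTGG and CCACG with 1 free base between them, and the amino acid response cores TGATGCAAT and TGATGAAAT were in none of the 53. A match describes letters in these windows, not a bound site, and a window without one says only that the letters are not in it.

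With YK-4-279 most chaperone genes stayed near their DMSO level, and 4 genes rose, the small heat shock protein HSPB1 by the most. Of the 58, 4 were called higher (HSPB1, HSPB6, DNAJB2 and DNAJB6) and 3 lower (DNAJC9, HSPA14 and HSPB11), where called means a two-sided limma p, adjusted by Benjamini-Hochberg over all 14225 named entries tested, under 0.05. That is 12.1% of the members, beside 13.8% of all entries tested (7.33% higher and 6.49% lower). Of the members, 9 had all 3 YK-4-279 libraries above all 3 DMSO libraries and 12 had all below, beside 23.2% and 20.4% of all entries; these member shares are close to or below the background. The difference was past 1.5-fold for 2 of the 58, HSPB1 and DNAJB13, of which DNAJB13 was not called (6.71, 5.96 and 5.14 counts in DMSO, 17.3, 21.1 and 6.04 with the drug, limma adjusted p = 0.221). The count was 15 with only the 6 libraries of the comparison in the fit, and 2 without DMSO replicate 1 or YK-4-279 replicate 1 or 2, 3 without DMSO replicate 2 or 3 and 4 without YK-4-279 replicate 3. The shares of all entries called in these fits are not given here. In bulk RNA, fewer cells with a transcript and less of it per cell cannot be told apart.

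**Figure D1:**
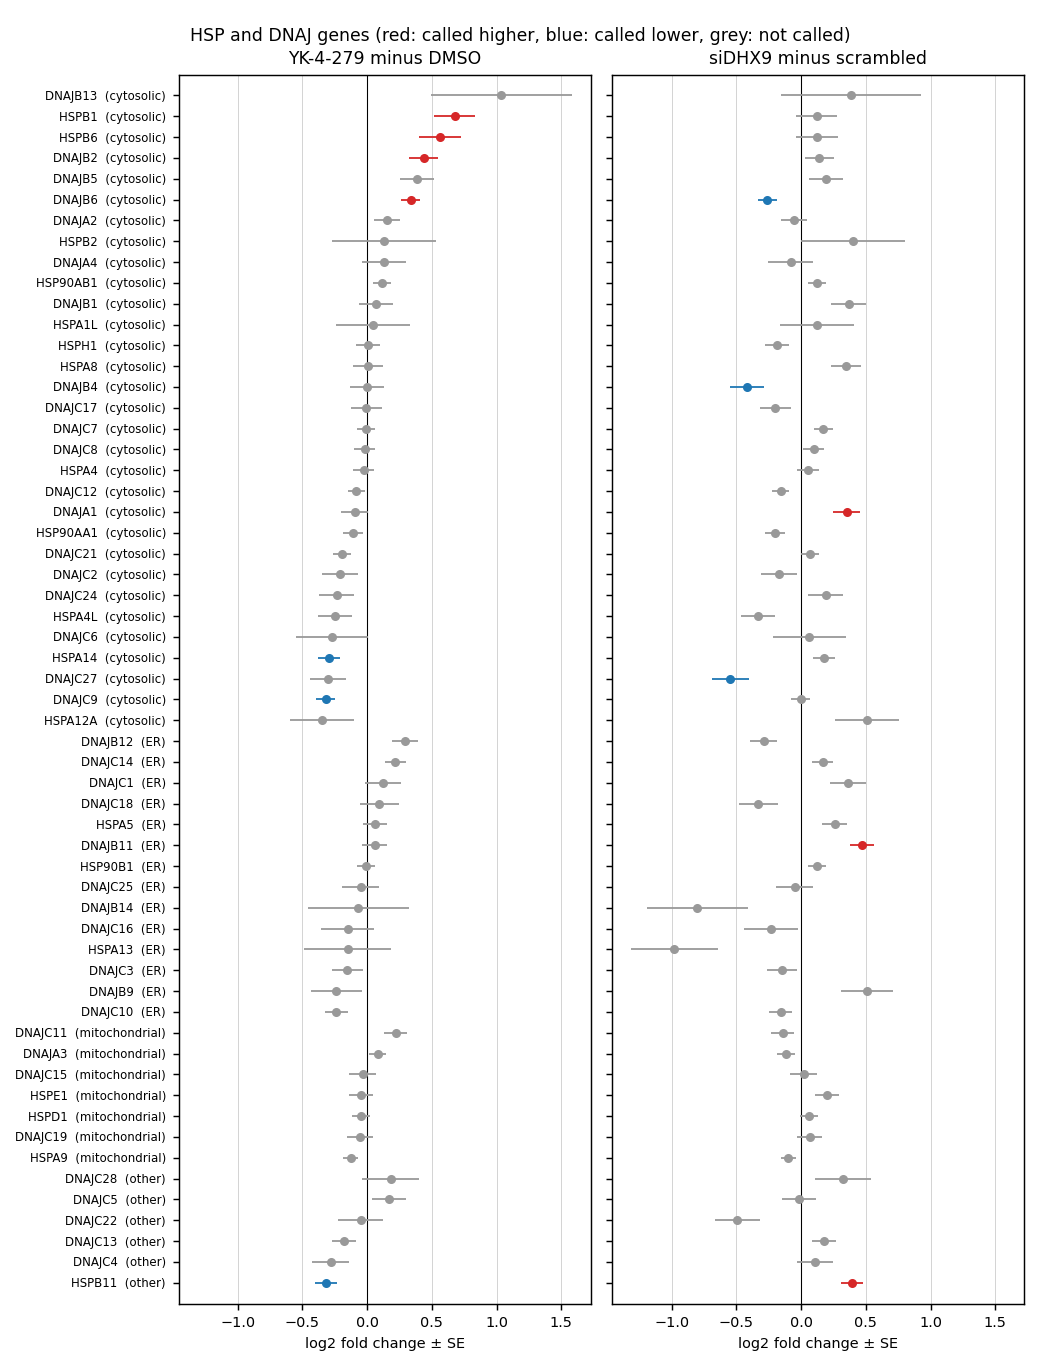
Log2 fold change (x axis, ± SE) of the 58 chaperone genes, grouped by location, for YK-4-279 minus DMSO (left) and siDHX9 minus scrambled (right), with called genes in red (higher) or blue (lower). On the left the 4 red points are all cytosolic and no ER point is coloured; on the right the only coloured ER point is DNAJB11.

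HSPB1 (HSP27), a small heat shock protein that binds unfolding clients and actin, had 10720, 12146 and 12514 counts in DMSO and 17463, 20599 and 18412 with YK-4-279 (chr7:75931875-75933622; all gene positions from here on are in hg19). All 3 drug libraries lay above all 3 controls, with a log2 fold change of 0.67 ± 0.16 SE (1.6-fold, limma adjusted p = 0.0135). The call was lost without DMSO replicate 1 (0.0624) or YK-4-279 replicate 2 (0.0666). HSPB6 (HSP20), a small heat shock protein best known from muscle (chr19:36245469-36247930), rose from 299, 323 and 317 to 453, 509.8 and 427, again with no overlap between the groups (log2 0.56 ± 0.16 SE, limma adjusted p = 0.0351). Leaving out any 1 of the 6 DMSO and YK-4-279 libraries took its adjusted p to between 0.0626 and 0.137, and fitting all entries with no minimum to 0.0502. Of the 4 genes with an HSPB name that passed the minimum, HSPB1 and HSPB6 rose, HSPB11 fell and HSPB2 was not called. The HSPB2 entry also holds C11orf52 and a read-through of both, and its mean was 43.0 counts.

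DNAJB6, a nuclear and cytosolic J protein that keeps aggregation-prone clients soluble (chr7:157129698-157210132), had 2799, 2630 and 2514 counts in DMSO and 3405, 3383 and 3239 with the drug. It rose 1.26-fold (log2 0.34 ± 0.07 SE, limma adjusted p = 0.00963), and it was called in all 22 alternative fits, those without 1 library among them. DNAJB2, a J protein that sorts clients to the proteasome (chr2:220144033-220151622), had 493, 551 and 459.7 counts in DMSO and 733, 655 and 648 with the drug, a log2 change of 0.44 ± 0.11 SE (limma adjusted p = 0.0197). For DNAJB2 the adjusted p was 0.0535 to 0.0824 without DMSO replicate 1 or 3 or YK-4-279 replicate 1 or 2. DNAJB5, of the same family, was higher in all 3 drug libraries (455 to 538 against 359.5 to 422) but at a limma adjusted p of 0.064; it stands outside the naming rule and was picked after its values were seen.

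The 3 genes that fell did so by similar, small amounts. DNAJC9, a J protein that also chaperones histones, shares its entry with MRPS16 (chr10:75001716-75012451); it had 34710, 35154 and 34694 counts in DMSO and 26728, 29066 and 28106 with the drug, and fell by 0.32 ± 0.07 SE (limma adjusted p = 0.0124). HSPA14, an HSPA protein bound to ribosomes (chr10:14880159-14913738), went from 4174, 3996 and 4285 to 3373, 3323 and 3471 (log2 −0.29 ± 0.09 SE, limma adjusted p = 0.0377). HSPB11, which despite its name is also a subunit of intraflagellar transport (IFT25; chr1:54387234-54411981), went from 4476, 4612 and 4359 to 3451, 3736 and 3621 (log2 −0.32 ± 0.08 SE, limma adjusted p = 0.0245). In all 3 the drug and DMSO libraries did not overlap. DNAJC9 lost its call without DMSO replicate 2 (0.0516) or YK-4-279 replicate 1 (0.058). HSPB11 lost its call without any 1 of the 6 libraries of the comparison (0.0551 to 0.092), and HSPA14 without any 1 of those 6 or siDHX9 replicate 1 (0.0508 to 0.126). Their entries overlap other genes: DNAJC9 shares bases with FAM149B1, CAMK2G and its own antisense gene, HSPB11 with LRRC42 and HSPA14 with CDNF, and the sources used here do not say if counting took account of strand.

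**Figure D2:**
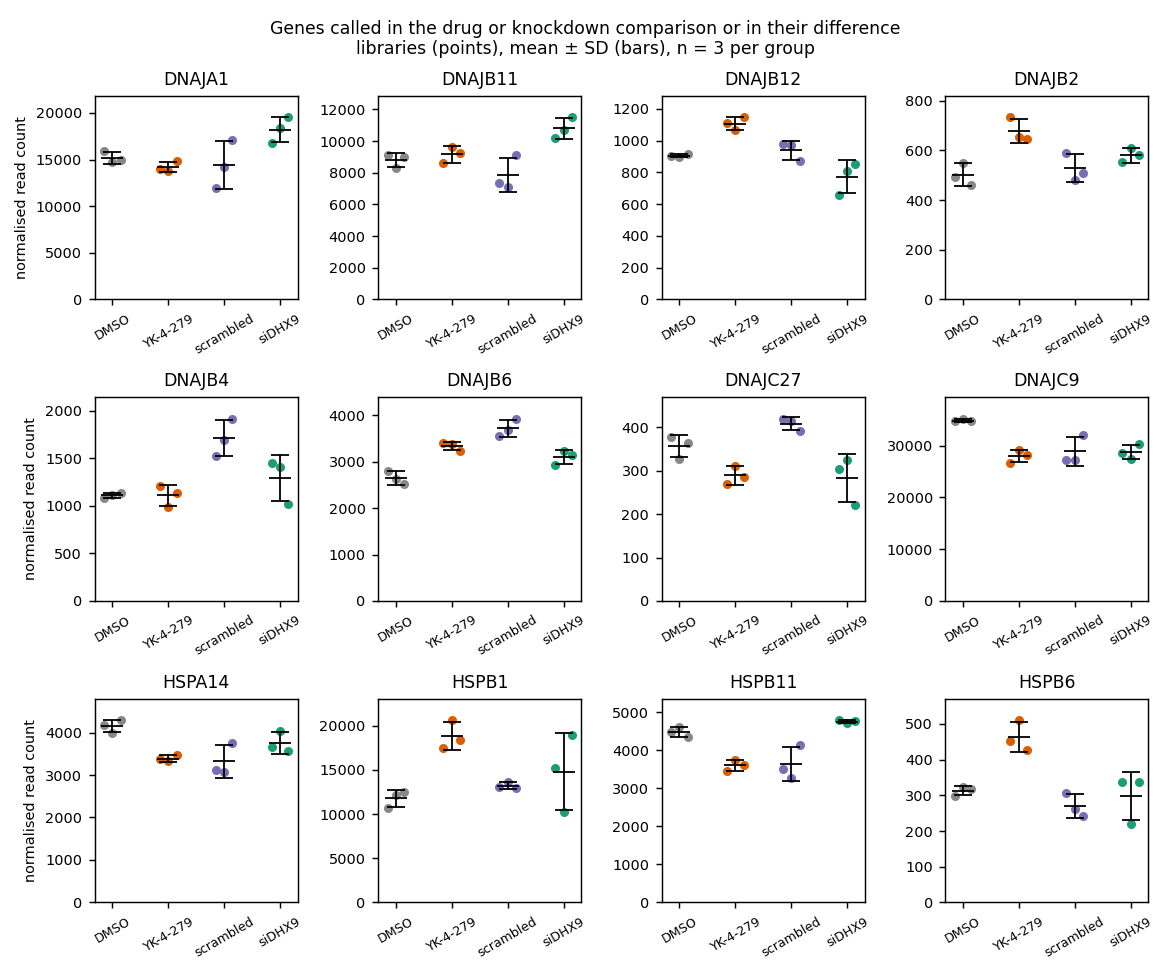
Normalised read counts (y axis, from 0) of the 12 chaperone genes called in the drug comparison, in the knockdown comparison or in the test of their difference, with 1 point per library and bars for the mean ± SD of 3 libraries. HSPB1 and HSPB6 are highest with YK-4-279, DNAJB6 is lowest in DMSO, and DNAJB11 is highest with siDHX9.

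The abundant cytosolic folding machinery did not pass the test with the drug. HSPA8 (HSC70), the constitutive HSPA protein, had 204346 to 216055 counts with YK-4-279 and 203053 to 212749 in DMSO (log2 0.01 ± 0.12 SE, limma adjusted p = 0.977). DNAJB1 and DNAJA1, its main J partners, had log2 changes of 0.07 ± 0.13 and −0.10 ± 0.11 SE (limma adjusted p = 0.778 and 0.576). HSPH1, the nucleotide exchange factor HSP105, had 0.01 ± 0.09 SE. HSP90AA1 was lower in all 3 drug libraries (226339 to 235920 against 243324 to 257186) and HSP90AB1 higher in all 3 (153275 to 154531 against 134790 to 149591), at limma adjusted p values of 0.377 and 0.305. HSPA8, both cytosolic HSP90 genes, HSPD1 and HSPE1 have many near-identical processed copies in the genome, so the counts of these entries depend on how reads with several matches were placed, which the sources used here do not give.

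No ER chaperone was called with YK-4-279: 0 of 14 by limma, edgeR and DESeq2 alike, beside 13.8% of all entries by limma. At that share a class of 14 holds few calls. At an unadjusted limma p under 0.05 there were 3 of 14, beside 4201 of all 14225 entries tested. HSPA5, the main HSPA protein of the ER, had 17680, 16279 and 15911 counts in DMSO and 17820, 16692 and 17552 with the drug, overlapping groups with a log2 change of 0.06 ± 0.09 SE (limma adjusted p = 0.693). HSP90B1 had a difference of −0.01 ± 0.07, the lumenal J proteins DNAJB11 and DNAJC3 had 0.06 ± 0.09 and −0.15 ± 0.12, and DNAJB9, which recruits HSPA5 to the stress sensor IRE1, had −0.24 ± 0.20 (all log2, SE, none called). DNAJC10, a J protein with disulfide reductase domains, was lower in all 3 drug libraries (4438, 4268 and 4669 against 5466, 5207 and 5098) at a limma adjusted p of 0.0922. With only the 6 DMSO and YK-4-279 libraries in the fit 3 of 14 ER genes were called, DNAJC10 among them (0.00552). The share of all entries called in that fit is not given here. DNAJC10 was also called without siDHX9 replicate 2 or 3 (0.0232 and 0.0486), and over all alternatives its adjusted p reached 0.258.

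Mitochondrial chaperones were called in 0 of 7 cases with the drug by limma, edgeR and DESeq2, beside 13.8% of all entries by limma. At that share a class of 7 holds few calls. At an unadjusted limma p under 0.05 there were 2, beside 4201 of all 14225 entries tested. HSPA9 (mortalin), the HSPA protein of the matrix, had 49609, 46987 and 48152 counts in DMSO and 43443, 43934 and 45095 with the drug. Its log2 change was −0.13 ± 0.06 SE (limma adjusted p = 0.16, and 0.0307 with only the 6 libraries of the comparison). In that smaller fit 2 of 7 were called, and its share over all entries is not given here. HSPD1 and HSPE1, the 2 parts of the matrix chaperonin, are neighbours on chromosome 2 whose entries share 278 bases. The HSPE1 entry also holds MOB4 and a read-through of both, so all HSPE1 values here are of the joined entry. Neither HSPD1 nor HSPE1 was called, with differences of −0.05 ± 0.07 and −0.05 ± 0.09 (log2, SE).

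Among cytosolic co-chaperones the clearest rises with the drug were those of BAG3 and HSF1. In a list of 26 genes of HSF1 and cytosolic co-chaperones 5 rose and 1 fell (23.1% called, beside 13.8% of all entries), with a median log2 change of 0.11 beside 0.02 over all entries tested. BAG3, a nucleotide exchange factor that links HSPA proteins with small heat shock proteins, had 244, 229 and 238 counts in DMSO and 563, 465 and 414 with YK-4-279 (log2 1.01 ± 0.16 SE, limma adjusted p = 0.00166). HSF1 itself rose from 1903, 2051 and 1954 to 3023, 3147 and 2826 (log2 0.61 ± 0.11 SE, limma adjusted p = 0.0029); its entry overlaps that of DGAT1. STIP1 (HOP), which joins HSPA proteins to HSP90, rose by 0.32 and BAG2, an inhibitor of the ubiquitin ligase CHIP, fell by 0.37 (limma adjusted p = 0.0263 and 0.0343). BAG3 and HSF1 were called in all 22 alternative fits, and STIP1 and BAG2 in 16, each losing its call without any 1 of the 6 libraries of the comparison (0.0578 to 0.103 and 0.0626 to 0.117).

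Among other ER folding genes and genes of the unfolded protein response, 5 of 29 rose and 2 fell with the drug (24.1% called, beside 13.8% of all entries; median log2 0.10 beside 0.02). P4HB, a protein disulfide isomerase, rose from 13461, 13105 and 14913 to 19047, 19211 and 18534 (log2 0.46 ± 0.09 SE, limma adjusted p = 0.00553), and EIF2AK3, the stress sensor PERK, fell from 474, 443 and 358 to 220.5, 193 and 277 (log2 −0.89 ± 0.17 SE, limma adjusted p = 0.00418). CRELD2 and OS9, both in the ER lumen, rose by 0.42 and 0.42. CRELD2 lost its call without DMSO replicate 1 (0.0552) or YK-4-279 replicate 2 (0.0531), and OS9 without DMSO replicate 2 or 3 or any 1 YK-4-279 library (0.0528 to 0.0936). Of 14 genes of the cytosolic chaperonin and prefoldin 0 were called by limma, edgeR and DESeq2. At an unadjusted limma p under 0.05 there was 1, beside 4201 of all 14225 entries tested. With only the 6 libraries of the comparison in the fit 2 were called higher and 5 lower. That fit called 9 higher and 3 lower in the ER folding list, and 6 higher and 1 lower in the mitochondrial list. The share of all entries that it called is not given here. Of 14 mitochondrial chaperones and proteases SPG7 alone rose, by 0.41 (limma adjusted p = 0.0477, lost in 8 of 12 fits without 1 library, those without any 1 library of the comparison or scrambled or siDHX9 replicate 1, at 0.0616 to 0.168, and not called by edgeR, 0.0634, or with TMM factors, 0.0626).

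With siDHX9, 6 chaperone genes were called, and they moved in both directions. Of these, 5 encoded J proteins, but J proteins also made up most of the members. The DNAJA, DNAJB and DNAJC families held 4, 10 and 25 of the 58. Of the 58 genes, 3 rose (DNAJB11, HSPB11 and DNAJA1) and 3 fell (DNAJB6, DNAJB4 and DNAJC27) against scrambled, 10.3% of the members beside 16.7% of all entries tested (8.75% higher and 7.97% lower). All 3 siDHX9 libraries were above all 3 scrambled libraries for 6 members and below for 8, beside 14.9% and 14.4% of all entries. The difference was past 1.5-fold for 2, HSPA13 and DNAJB14, neither of them called (limma adjusted p = 0.0591 and 0.168). The count depended on single libraries: it was 3 without scrambled replicate 1 or 2, 13 without scrambled replicate 3 and 15 without siDHX9 replicate 2. With only the 6 libraries of the comparison in the fit 0 of 58 were called by limma, with 11 at an unadjusted p under 0.05. The shares of all entries in that fit and in those without 1 library are not given here. Without scrambled replicates 1 and 2 together 1 was called, HSP90AA1 (lower, 0.0349), and the lone scrambled library is then assumed to vary like the other groups.

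DNAJB11 (ERdj3), the J protein that delivers lumenal clients to HSPA5, was the ER gene that rose (chr3:186285192-186303589). It had 7361, 7087 and 9115 counts in scrambled and 10207, 10729 and 11494 in siDHX9 libraries, beside 8283 to 9126 in DMSO. The siDHX9 libraries lay above all 9 others (log2 0.47 ± 0.09 SE, 1.38-fold, limma adjusted p = 0.00525). The DNAJB11 entry shares 3141 bases with that of TBCCD1. The call held in each of the 12 fits without 1 library, but not with only the 6 libraries of the comparison (0.0602) or without scrambled replicates 1 and 2 together (0.222). HSPA5 had 17513, 20541 and 22992 counts in scrambled and 22869, 26462 and 23380 in siDHX9 libraries, and the groups overlapped by 1 scrambled library. The log2 difference of 0.26 ± 0.09 SE had a limma adjusted p of 0.0712 (0.0186 without scrambled replicate 3). Leaving out scrambled replicate 1 gave 0.264, and leaving out replicates 1 and 2 gave a difference of 0.07 (0.753). DNAJB9 (609, 490.1 and 892 against 1178, 919 and 710.1) differed by 0.51 ± 0.20 (limma adjusted p = 0.092), and was called without scrambled replicate 3 (0.0156) or siDHX9 replicate 3 (0.0477), but differed by 0.04 (0.949) without scrambled replicates 1 and 2 together. HSP90B1, with the ER stress response element at 2 sites above, differed by 0.12 ± 0.07 (limma adjusted p = 0.255).

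DNAJC3 and DNAJC10, also lumenal J proteins, were not called: DNAJC3, which also inhibits the kinase PERK, differed by −0.14 ± 0.12 and DNAJC10 by −0.16 ± 0.09 (limma adjusted p = 0.41 and 0.24; DNAJC10 was called without siDHX9 replicate 2, at 0.0178, and its adjusted p reached 0.741 over the alternatives). The largest ER value was that of HSPA13, a lumenal HSPA protein, outside the naming rule: it had 234, 446 and 169.6 counts in scrambled, 102, 203 and 110.2 in siDHX9 and 145, 89.4 and 127 in DMSO libraries, a log2 change of −0.98 ± 0.33 SE against scrambled that was not called (limma adjusted p = 0.0591). Its highest count was in scrambled replicate 2.

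In the cytosol DNAJA1, a farnesylated J protein that works with HSPA8, rose from 11954, 14186 and 17061 in scrambled to 16774, 18361 and 19518 in siDHX9 libraries (chr9:33025201-33039903). The groups overlapped, since scrambled replicate 3 lay above siDHX9 replicate 1 (log2 0.35 ± 0.11 SE, limma adjusted p = 0.0366). Its adjusted p passed 0.05 without DMSO replicate 2 or 3, YK-4-279 replicate 1 or 3, scrambled replicate 1 or 2 or siDHX9 replicate 3 (0.0505 to 0.139), and with no minimum (0.0547). HSPA8 had 167013, 192601 and 250995 counts in scrambled and 231576, 255791 and 278506 in siDHX9 libraries, a difference of 0.34 ± 0.12 with a limma adjusted p of 0.0558. That p was 0.00241 without scrambled replicate 3 but 0.218 when replicate 1 was left out instead. Leaving out scrambled replicates 1 and 2 together brought the difference to 0.02 (0.941). DNAJB1, its J partner, had 4598, 5412 and 7247 counts against 7389, 6517 and 8039, log2 0.37 ± 0.13 SE, limma adjusted p = 0.0739. It was called without scrambled replicate 3 (0.0052) or siDHX9 replicate 2 (0.0245). Its adjusted p was 0.274 when scrambled replicate 1 was left out. With replicates 1 and 2 of that group both left out the difference was 0.008 (0.981). HSP90AA1 lay lower in all 3 siDHX9 libraries (215609 to 236634 against 239631 to 290526; limma adjusted p = 0.0855, with 0.0349 to 0.263 over the alternatives). HSP90AB1 and HSPH1 differed by 0.12 ± 0.07 and −0.19 ± 0.09 SE (limma adjusted p = 0.246 and 0.184; HSPH1 0.0491 to 0.488 over the alternatives).

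DNAJB6, which rose with the drug, fell with siDHX9, from 3560, 3678 and 3923 in scrambled to 2931, 3236 and 3148, with no overlap (log2 −0.26 ± 0.07 SE, limma adjusted p = 0.0303). Its call was lost without scrambled replicate 2 or 3 or siDHX9 replicate 1 or 3 (0.0507 to 0.108). Both transfected groups lay above DMSO, and the order of the groups was DMSO (2514 to 2799), siDHX9 (2931 to 3236), YK-4-279 (3239 to 3405) and scrambled (3560 to 3923). The siDHX9 group ended just below the lowest drug library. DNAJB4, a J protein of the same family, had 1530, 1695 and 1915 counts in scrambled and 1453, 1406 and 1017 in siDHX9 libraries, beside 1085 to 1134 in DMSO (log2 −0.42 ± 0.13 SE, limma adjusted p = 0.0441). It kept its call in 3 of 12 fits without 1 library, those without YK-4-279 replicate 2 or siDHX9 replicate 1 or 2, and in the other 9 the adjusted p was 0.0528 to 0.159 (0.0598 with no minimum); its entry shares 48 bases with the more abundant FUBP1. DNAJC27, a J protein that is also a Ras-like GTPase, fell from 419, 415 and 391 to 304, 325 and 220.5 (log2 −0.55 ± 0.14 SE, limma adjusted p = 0.0206), a call lost without scrambled replicate 1 or 2 or siDHX9 replicate 3 (0.054 to 0.0707).

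HSPB11 moved the other way from DNAJB6. It had 3507, 3266 and 4140 counts in scrambled and 4787, 4708 and 4766 in siDHX9 libraries, and rose by 0.39 ± 0.08 (log2, SE, limma adjusted p = 0.0078). The siDHX9 and DMSO levels (4359 to 4612) were the high ones, and scrambled and YK-4-279 the low ones. The call held in each of the 12 fits without 1 library but not with only the 6 libraries of the comparison (0.0845) or without scrambled replicates 1 and 2 together (0.241). HSPB1 had 13067, 13633 and 12927 counts in scrambled and 15170, 10285 and 18958 in siDHX9 libraries, where replicate 2 lay below all 3 scrambled libraries (log2 0.12 ± 0.16 SE, limma adjusted p = 0.628, 0.015 without that replicate, and a difference of −0.08 without siDHX9 replicate 3). The 7 mitochondrial genes gave 0 calls by limma, edgeR and DESeq2, beside 16.7% of all entries by limma. At an unadjusted limma p under 0.05 there was 1, beside 4737 of all 14225 entries tested. HSPA9, HSPD1 and HSPE1 differed by −0.10 ± 0.06, 0.06 ± 0.07 and 0.20 ± 0.09 (log2, SE). HSPE1 was called without scrambled replicate 3 (limma adjusted p = 0.00881). Without scrambled replicates 1 and 2 together HSPE1 differed by −0.04.

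Beyond the HSP and DNAJ genes, other ER folding genes moved in both directions with siDHX9. Of 29, 8 rose and 4 fell (41.4% called, beside 16.7% of all entries; median log2 0.03 beside 0.00 over all entries). SDF2L1, which binds HSPA5 together with DNAJB11, rose from 2999, 3484 and 4774 to 6620, 5844 and 7467 (log2 0.84 ± 0.14 SE, limma adjusted p = 0.00193). CRELD2 rose from 1723, 1955 and 2033 to 3279, 2946 and 3809 (log2 0.81 ± 0.10 SE, limma adjusted p = 0.000155). PDIA6, a disulfide isomerase, fell from 22811, 24045 and 23641 to 13916, 14768 and 15192 (log2 −0.68 ± 0.06 SE, limma adjusted p = 1.25e-05), with 23471 to 25454 in DMSO and 25950 to 26654 with the drug. HERPUD1, a part of ER-associated degradation, fell from 7612, 6781 and 5356 to 4879, 4632 and 4503 but stayed above its DMSO level of 3334 to 3369 (log2 −0.48 ± 0.10 SE, limma adjusted p = 0.00782).

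**Figure D3:**
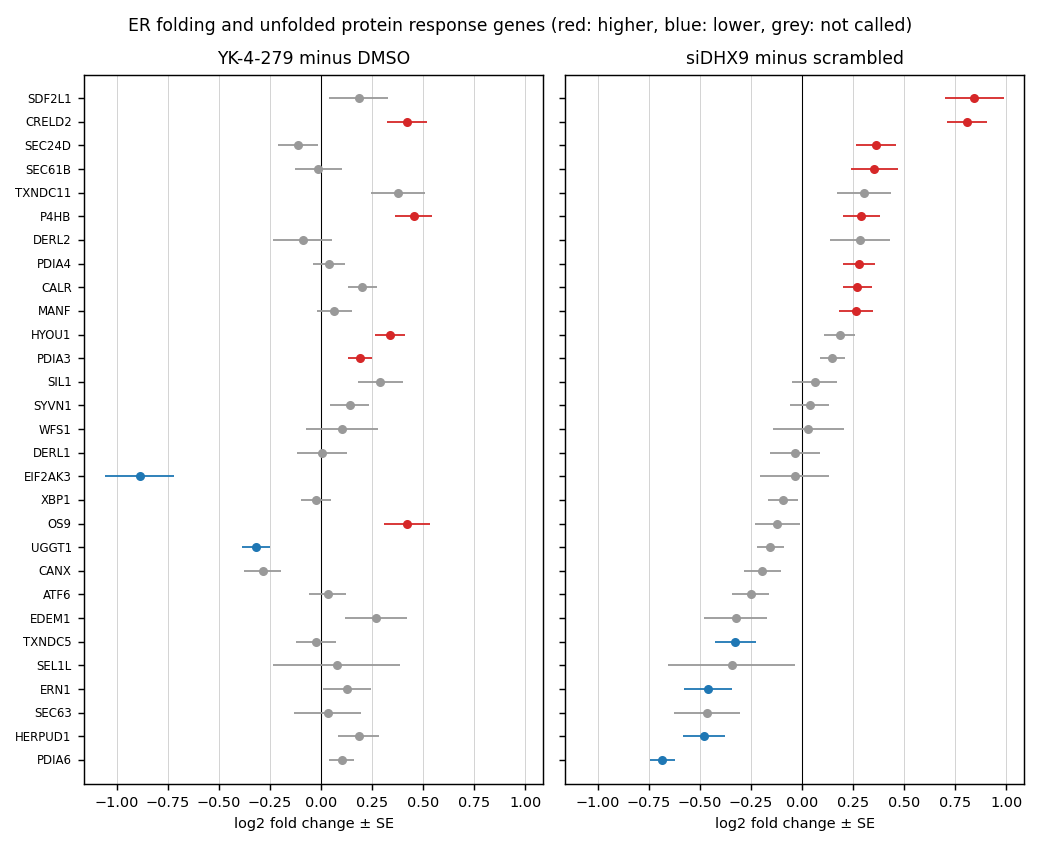
Log2 fold change (x axis, ± SE) of 29 ER folding and unfolded protein response genes that are not HSP or DNAJ genes, for YK-4-279 minus DMSO (left) and siDHX9 minus scrambled (right), called genes in red (higher) or blue (lower). With siDHX9 the points run from SDF2L1 and CRELD2, above 0.80, to PDIA6 at −0.68; with the drug EIF2AK3 is lowest at −0.89.

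Without scrambled replicates 1 and 2 together CRELD2 and PDIA6 were the ER folding genes still called (1 higher and 1 lower of 29), with adjusted p values of at most 0.0155 and 0.00497 over all alternatives, while SDF2L1 and HERPUD1 were not (0.105 and 0.252). In the HSF1 and co-chaperone list 0 of 26 were called with siDHX9 by limma, beside 16.7% of all entries. At an unadjusted limma p under 0.05 there were 6, beside 4737 of all 14225 entries tested. By edgeR 1 was called and by DESeq2 3, all higher. The cytosolic chaperonin and prefoldin list gave 0 of 14 by all 3 tools, with 3 at an unadjusted limma p under 0.05, beside the same 4737 entries. Of 14 mitochondrial chaperones and proteases GRPEL2, a nucleotide exchange factor of HSPA9, and the proteases CLPX and AFG3L2 fell, with log2 changes of −0.64 ± 0.15, −0.29 ± 0.08 and −0.27 ± 0.08 (SE, limma adjusted p = 0.0123, 0.032 and 0.0407). GRPEL2 kept its call in each fit without 1 library. CLPX lost it without any 1 scrambled library or siDHX9 replicate 1 or 3 (0.0501 to 0.121). AFG3L2 lost it in 9 of 12 such fits, all but those without YK-4-279 replicate 1, scrambled replicate 3 or siDHX9 replicate 2 (0.0544 to 0.13).

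Set side by side, cytosolic and ER chaperones had nearly the same median change with the drug: −0.01 for the 31 cytosolic and −0.03 for the 14 ER genes, beside 0.02 over all entries tested. With siDHX9 the medians were 0.10 and −0.10, a gap of −0.19 between medians of fold changes. Library by library, each gene was also set against its own mean over all 12 libraries. The ER median minus the cytosolic median was then 0.07, 0.08 and −0.05 in scrambled replicates 1, 2 and 3. In siDHX9 replicates 1, 2 and 3 it was −5e-04, 0.12 and −0.15, so the groups overlapped on that measure. The gap between fold changes was 0.03 for the 9 lumenal genes alone, and 0.07 for all 14 without scrambled replicates 1 and 2. Without 1 library it was −0.22 to −0.04. Called genes were 6 of 31 cytosolic and 0 of 14 ER with the drug, and 4 of 31 and 1 of 14 with siDHX9, each beside the shares over all entries given above.

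**Figure D4:**
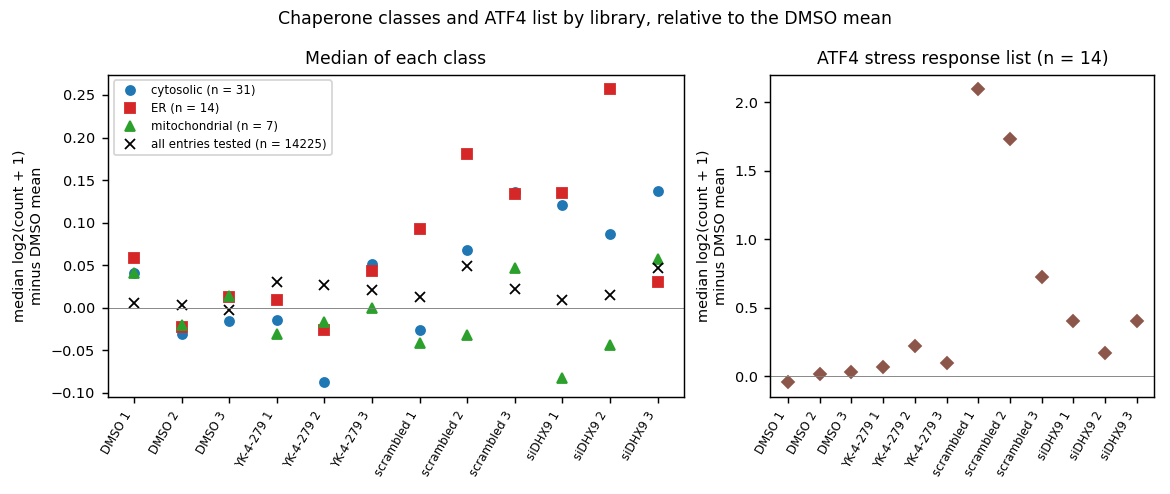
Median log2(count + 1) minus the DMSO mean (y axis), by library, of cytosolic, ER and mitochondrial chaperones and all entries tested (left), and of the ATF4 stress response list (right, on its own scale). The class medians stay within −0.09 and 0.26, while the ATF4 list reaches 2.10 and 1.74 in scrambled replicates 1 and 2.

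The scrambled libraries carried a high level of another stress programme. In a list of 14 ATF4 target and stress genes, which encode amino acid synthesis and the integrated stress response, the median per library was 2.10, 1.74 and 0.73 above the DMSO mean on the log2 scale in scrambled replicates 1, 2 and 3, against 0.40, 0.17 and 0.41 with siDHX9 and 0.07 to 0.22 with YK-4-279. Of the 14, 12 were called higher in scrambled than in DMSO (85.7%, beside 9.7% of all entries) and 8 lower in siDHX9 than in scrambled (57.1%, beside 7.97%). The part of this programme in the chaperone values against scrambled was not tested. In that group the chaperone genes were more often highest in replicate 3: 34 of 58 had their highest scrambled value in replicate 3 (58.6%, against 34.3% of all entries). The median coefficient of variation of the 58 was 11.7% in scrambled, 8.15% in siDHX9, 5.87% with YK-4-279 and 5.3% in DMSO, beside 11.9, 13.6, 8.45 and 8.11% over all entries.

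Set against DMSO, the scrambled group had 12 of 58 chaperone genes called, 8 higher and 4 lower (20.7%, beside 18.9% of all entries, 9.7% higher and 9.22% lower). This comparison shares its controls with that of the drug and its scrambled libraries with that of siDHX9, so the values are not independent. DNAJB6 had the smallest adjusted p (log2 0.49 ± 0.07 SE, limma adjusted p = 8e-04). DNAJB4, DNAJB5 and HSPA4L, an HSPH-like exchange factor, were higher by 0.62 ± 0.13, 0.64 ± 0.13 and 0.63 ± 0.13 (log2, SE), HSPA5 by 0.28 ± 0.09, and DNAJC5, a J protein of synaptic vesicles, by 0.56 ± 0.13. HSPA13 (1.14) and DNAJC18 (0.52) were also higher, and HSPB11, HSPA14, DNAJC9 and DNAJC22 lower (−0.31, −0.33, −0.28 and −0.57). Without scrambled replicates 1 and 2 together 4 were called, all higher. DNAJB6, DNAJB4, DNAJB5 and HSPA4L kept their calls in each fit without 1 library. HSPA5 lost its call in 9 of 12 such fits, all but those without scrambled replicate 1 or siDHX9 replicate 2 or 3 (0.0556 to 0.153). DNAJC9, HSPB11 and DNAJC22 lost theirs without any 1 DMSO library or scrambled replicate 1 or 2 (0.0522 to 0.147), and HSPA14, DNAJC18 and HSPA13 without scrambled replicate 1 or 2 or 2 of the 3 DMSO libraries (0.0544 to 0.134). DNAJC5 lost its call without DMSO replicate 3 (0.0536). Leaving out DMSO replicate 1, 2 or 3 or scrambled replicate 2 gave 6, 6, 5 and 5 calls.

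The effects of the drug and of siDHX9 were then set against each other in an interaction contrast of the same fit. It was called for 4 of 58 genes, 2 with the drug effect above that of siDHX9 and 2 below (6.9%, beside 9.69% of all entries, 4.4% and 5.29%). DNAJB6 differed by 0.60 ± 0.11 and HSPB11 by −0.71 ± 0.12 (log2, SE, limma adjusted p = 0.00377 and 0.00281), each called in all 21 alternatives. HSPA14 differed by −0.47 ± 0.12 and DNAJB12, an ER membrane J protein that was higher in all 3 drug libraries and lower in all 3 siDHX9 libraries than in their controls, by 0.58 ± 0.15 (limma adjusted p = 0.027 and 0.0244). HSPA14 lost this call without any 1 DMSO or YK-4-279 library or scrambled replicate 1 or 2 (0.0511 to 0.0711). DNAJB12 lost it without any 1 DMSO library, YK-4-279 replicate 1 or 3, scrambled replicate 1 or siDHX9 replicate 1 (0.0516 to 0.0648). For HSPB1, called with the drug and not with siDHX9, the difference of 0.55 ± 0.22 was not called (limma adjusted p = 0.132, with 0.0151 without siDHX9 replicate 3 and up to 0.399 over the alternatives). The same was true of DNAJB11, called with siDHX9 and not with the drug (−0.41 ± 0.13, limma adjusted p = 0.0628, with 0.0081 without scrambled replicate 3 and 0.469 when replicates 1 and 2 were left out together), and it was called by DESeq2 (0.0401) and with TMM factors (0.0459). Neither gene is therefore shown by the main limma fit to answer the treatments differently. For HSPA5, HSPA8 and DNAJA1 the differences were −0.20 ± 0.13, −0.34 ± 0.16 and −0.45 ± 0.15 SE (limma adjusted p = 0.372, 0.207 and 0.0707; without scrambled replicate 3, 0.0151 for HSPA8 and 0.00902 for DNAJA1, and without scrambled replicates 1 and 2 together, 0.971 and 0.453). The count of calls was 12 without scrambled replicate 3, 7 without siDHX9 replicate 3, and 2 without any 1 DMSO library, YK-4-279 replicate 1 or 3 or scrambled replicate 1. DESeq2 called 8, 2 higher and 6 lower, and TMM factors gave 2 and 4.

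As a share of all normalised counts, the 58 genes took 1.86 to 1.96% in the YK-4-279 libraries and 2.04 to 2.17% in DMSO, ranges that did not overlap, 2.04 to 2.4% in the scrambled group and 2.10 to 2.42% in the siDHX9 group, which did. The cytosolic genes made up most of it, and the share was not tested. A share also depends on the counts of all other entries, so a lower share need not mean lower chaperone counts. The median log2 change of the 58 with the drug was −0.02, beside 0.02 over all entries tested. In all, 47 of the 58 genes were called in neither the drug nor the knockdown comparison, 9 in 1 of them and 2, DNAJB6 and HSPB11, in both, in opposite directions.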

How the data were processed

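RNA-seq of 12 TC-71 libraries, 3 in each of 4 groups taken from the sample labels, was analysed from 1 table of gene entries. The deposited values are a signal: read counts that the authors divided by size factors. The submitters' processing notes name FastQC, Picard, SAMtools, STAR 2.4.0, DESeq and hg19; the counting program, strand setting and handling of reads with several matches are not stated there. Whole reads were recovered for 100% of values (tolerance 0.1 read), giving 38568983 to 65547726 reads per library.

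Named entries with a mean of at least 10 (14225) were fitted on log2(value + 1) with limma 3.58.1 in R 4.3.3, all 12 libraries together (8 residual degrees of freedom, no covariate), and two-sided p-values were adjusted by Benjamini-Hochberg over all of them, with a threshold of 0.05. Fold changes are on the log2(value + 1) scale. Alternatives were other added values and minimums, TMM factors, edgeR 4.0.16 and DESeq2 1.42.0 on the recovered reads, only the compared groups, a replicate block, each library left out, and scrambled replicates 1 and 2 left out together. The fit of the drug comparison was run on simulated data. The siDHX9 comparison, and libraries that deviate from their group, were not simulated. Genes were named if called with a group mean of at least 100 (the 10 largest rises and falls), if on a fixed list of main chaperones, or as up to 4 called genes of each related list. The members, lists and tests were chosen with earlier results of these data known. Promoter windows came from RefSeq, GRCh38.p14, and gene positions from the table, hg19.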

Additional observations from a re-analysis of the deposited data

Results flagged for a closer look

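For 4 chaperone genes the effect of YK-4-279 against DMSO differed from that of siDHX9 against scrambled in the limma interaction contrast. The difference on the log2 scale was 0.60 for DNAJB6 (adjusted p = 0.00377), which rose with the drug and fell with siDHX9. It was −0.71 for HSPB11 (adjusted p = 0.00281), which fell with the drug and rose with siDHX9. It was −0.47 for HSPA14 (adjusted p = 0.027) and 0.58 for DNAJB12 (adjusted p = 0.0244). Without scrambled replicates 1 and 2 together DNAJB6 and HSPB11 were still called, and HSPA14 (0.234) and DNAJB12 (0.187) were not. Drug and knockdown cells also differ in time and transfection, which cannot be told apart from the agents in this contrast.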

How the results depend on the processing

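Of the values for single named genes under the alternatives, 2599 kept their side of the adjusted p threshold, 320 lost a call and 40 gained one, and none changed direction while called. The number of chaperone genes called with the drug (7) became 2 where a log2 change of at least 0.5 was also asked and 15 with only the 6 libraries compared; without 1 library it ranged from 2 to 9. With siDHX9 (6) it became 1, 0 and, without scrambled replicates 1 and 2 together, 1, and ranged from 3 to 15 without 1 library. For the difference of effects (4) it was 8 with DESeq2, 2 without scrambled replicates 1 and 2, and 2 to 12 without 1 library. For scrambled against DMSO (12) it was 7 with the size limit, 4 without scrambled replicates 1 and 2, and 5 to 15 without 1 library. The shares of all entries called under these alternatives are not given here, so a shift need not be particular to the chaperone genes. The cause of these shifts was not tested.

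The ER median minus the cytosolic median was −0.0249 to 0.0159 with the drug without 1 library. With siDHX9 it was 0.0259 for lumenal ER genes only, 0.0701 without scrambled replicates 1 and 2, and −0.2186 to −0.0382 without 1 library. For the difference of effects the values were −0.1236, −0.1244, and −0.1156 to 0.0349. For scrambled against DMSO they were −0.1228, −0.0021, and 0.0386 to 0.1442. The DHX9 change was −0.7189 to −0.6198 without 1 library.

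With the replicate number as a block, 5 chaperone genes were called with the drug, 6 with siDHX9, 4 for the difference and 12 for scrambled against DMSO. The genes differed: with the drug HSPB6 (0.0513) and HSPA14 (0.0563) lost their calls; with siDHX9 DNAJB6 (0.0513) and DNAJB4 (0.0651) lost theirs, and HSPA8 (0.0361) and DNAJB1 (0.0332) gained one; against DMSO HSPA5 (0.0654) lost its call and DNAJB1 (0.035) gained one. The labels do not say that equal numbers share a batch. Deviations of same-numbered libraries correlated at 0.117, 0.055 and −0.009 in the DMSO and YK-4-279 groups. There DMSO replicate 3 correlated best with YK-4-279 replicate 2 (0.079). In the scrambled and siDHX9 groups the values were 0.047, 0.06 and 0.078. Each library of these groups correlated best with its own number, scrambled replicate 1 only narrowly (0.041 with siDHX9 replicate 2). A shared batch was not tested. The fit with only the compared groups was not run for the difference, which needs all 4. With 3 libraries a group, small changes of low genes are not resolved.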
